A study of Mus musculus with 4 samples.

Results

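The tricarboxylic acid (TCA) cycle and its itaconate branch were examined by bulk RNA sequencing of macrophages grown from mouse bone marrow and then kept beside MC38, a mouse colon cancer line. The set held 9 genes of the 21878 in the count table: Cs, Aco1, Idh1, Idh2, Idh3a, Ogdh, Fh1 and Mdh2, picked by symbol as enzymes of the cycle, and Acod1 (also called Irg1), the itaconate synthase. Of these, Aco1 and Idh1 encode the cytosolic forms of their enzymes. All 9 genes had enough counts for the test. The libraries came from C57BL/6 mice of 8 weeks, 2 libraries from wild type mice (WT) and 2 from anti-Act1 mice, in which Act1, an adaptor of interleukin-17 receptor signalling, was knocked down in macrophages. Bone marrow of both groups had been cultured with M-CSF, the macrophage growth factor, and the macrophages then shared the wells with MC38 cells held in porous inserts. The labels give 48 h of coculture, and the study's text gives a shorter time for this experiment. The study names its replicates biological, but the animals behind each library and the promoter that drives the knockdown were not given in the sources used here.

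The cycle oxidises acetyl-CoA to carbon dioxide in the mitochondrion and feeds electrons to the respiratory chain. Citrate synthase forms citrate, aconitase turns it into isocitrate through cis-aconitate, and isocitrate dehydrogenase, 2-oxoglutarate dehydrogenase, succinyl-CoA synthetase, succinate dehydrogenase, fumarase and malate dehydrogenase complete the turn. In inflammatory macrophages the enzyme encoded by Acod1 draws cis-aconitate out of the cycle and decarboxylates it to itaconate, which inhibits succinate dehydrogenase, and Acod1 is known as a gene induced by interferons and by Toll-like receptor ligands.

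Traf3ip2, the gene of Act1, was at 6.98 and 7.54 CPM (a gene's count scaled to a common library total with TMM factors) in WT and at 9.63 and 7.84 CPM in anti-Act1, a log2 ratio of anti-Act1 to WT (log2 fold change) of 0.27 (SE 0.12, adjusted p = 0.117 by edgeR). Both anti-Act1 values lay above both WT values, so the transcript meant to be reduced was not lower in these counts, and "anti-Act1" below means the libraries labelled so, with every direction resting on that label. The Y-linked genes Ddx3y, Kdm5d and Uty had 0 counts in both libraries labelled anti-Act1, and Eif2s3y had 1 and 0. In WT the counts were 5741 and 7360 for Ddx3y, 2248 and 2716 for Kdm5d, 2349 and 3053 for Uty, and 4367 and 5546 for Eif2s3y. The groups thus differed in sex as read from Y-linked RNA, and sex cannot be told apart from the genotype. Total counts were 55435063 to 75062945 per library. All 10 macrophage markers examined were detected, with a summed level of 25319 and 26281 CPM in WT and 26203 and 27012 CPM in anti-Act1, and 2 of them were called higher and 3 lower, that is 5 of 10 where 20.7% of all genes tested were called. Markers of other cells were scarce. The 8 neutrophil markers summed to 7.21 and 7.34 CPM in WT and 6.67 and 7.61 CPM in anti-Act1, with S100a8 the highest, and of the 6 that were tested 1 was called higher and 3 lower. The part of these marker differences in the results below was not tested. The 8 epithelial markers that MC38 cells could bring summed to at most 0.898 CPM in any library, with Krt8, Krt18, Krt20 and Cldn4 at 0 in all 4. In bulk RNA, fewer cells of a type and less RNA per cell cannot be told apart.

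The promoters of the member that rose and of those examined beside it differed in their core letters. The 250 bases before the RefSeq start (GRCm38.p6) are shown for Acod1, for Aco1 and Fh1, whose adjusted p lay next to the threshold of 0.05, and for Cs, the entry enzyme, which overlapped between groups. Capitals mark 3 of the motifs searched on both strands: TATAAA, the TATA box; GGGCGG (or CCGCCC), the GC box; and CCAAT (or ATTGG).
Acod1 (chr14:103046762-103047011, + strand): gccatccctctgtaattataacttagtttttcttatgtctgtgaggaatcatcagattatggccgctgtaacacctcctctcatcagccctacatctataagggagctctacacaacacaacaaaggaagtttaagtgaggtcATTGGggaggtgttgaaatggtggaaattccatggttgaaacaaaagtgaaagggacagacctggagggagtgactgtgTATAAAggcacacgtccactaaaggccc
Aco1 (chr4:40143015-40143264, + strand): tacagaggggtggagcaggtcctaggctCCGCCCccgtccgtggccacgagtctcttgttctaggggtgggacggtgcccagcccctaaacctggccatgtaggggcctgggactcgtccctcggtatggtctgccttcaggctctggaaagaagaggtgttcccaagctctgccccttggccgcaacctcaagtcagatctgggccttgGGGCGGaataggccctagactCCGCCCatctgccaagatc
Fh1 (chr1:175625636-175625885, - strand): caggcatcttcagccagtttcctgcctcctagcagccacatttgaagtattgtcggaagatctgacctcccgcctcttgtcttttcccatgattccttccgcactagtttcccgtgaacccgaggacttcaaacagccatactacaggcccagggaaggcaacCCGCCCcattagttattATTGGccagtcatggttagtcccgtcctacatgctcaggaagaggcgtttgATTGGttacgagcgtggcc
Cs (chr10:128337477-128337726, + strand): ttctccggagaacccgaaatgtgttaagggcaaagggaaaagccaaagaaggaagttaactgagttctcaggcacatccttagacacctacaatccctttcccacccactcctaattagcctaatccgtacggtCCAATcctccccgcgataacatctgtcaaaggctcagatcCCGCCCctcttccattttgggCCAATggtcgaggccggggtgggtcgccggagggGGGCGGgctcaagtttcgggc

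Acod1 carried TATAAA from 28 to 23 bases before its start, a motif present in 12.4% of the 32851 RefSeq promoter windows of this length, and no other matched member carried it. GC boxes, present in 32.7% of all windows, lay in 9 of the 14 windows of the members. Idh1 and Ogdh had several windows each. By gene, 7 of the 8 members matched in RefSeq (Aco1, Cs, Fh1, Idh1, Idh2, Mdh2 and Ogdh) had a GC box in some window. The window of Acod1 had none. CCAAT, present in 33.8% of all windows, lay in those of Acod1, Cs and Fh1 among the printed ones. The Acod1 window held 2 CpG dinucleotides, against a median of 6 over all windows, and 29% of all windows held as many or fewer. The windows of Cs, Aco1, Fh1 and Mdh2 held 13, 10, 10 and 23. That of Idh2 held 17, those of Idh1 18 and 22, and those of Ogdh 9 to 35. The other motifs searched were TGANTCA for AP-1, TTGCNNAA for C/EBP, CACGTG for the E-box and TGACNNNGC for the antioxidant response element, carried by 6.75%, 9.56%, 6.02% and 10.2% of all windows. None of these letters stood in the Acod1 window, and of the members' windows only some of those of Ogdh held any (TTGCNNAA and CACGTG). Sites of NF-κB, STAT factors and interferon regulatory factors were not searched for, so their presence or absence is not given. No motif in the printed sequences overlapped another. Idh3a had no entry in the table. The coordinates are those of RefSeq, since the build of the count table was not settled by the sources used here.

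Acod1 was the member with the widest change. It was at 53.4 and 50.2 CPM in WT and at 122 and 129 CPM in anti-Act1. Both anti-Act1 libraries stood above both WT libraries, and the gap was far wider than the spread within either group. The means were 51.8 ± 2.23 and 126 ± 4.61 CPM (SD, n = 2), a 2.42-fold rise with a log2 ratio of 1.28 (SE 0.06, adjusted p = 2.88e-23 by edgeR). Among all 12494 genes tested, 20.7% were called (10.9% higher and 9.76% lower), and 99 of them (0.792%) were called higher with a log2 ratio at least that of Acod1, itself included. The call of Acod1 held in all 14 alternatives, with a log2 ratio of 1.21 to 1.32. Of the 2574 words of 50 bases in its GENCODE transcripts, 0 occurred in transcripts of another gene.

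Of the other 8 members, 0 were called higher, 2 were called lower and 6 did not pass the test, against the 20.7% called over all genes. Under the alternatives whose counts are given at the end, the share of all genes called was 16.2% with DESeq2, 19.3% with the replicate number as a block, 7.04% with limma on unfiltered FPKM, and 19.9%, 15.5%, 13.4% and 13% on leaving out WT replicate 1, WT replicate 2, anti-Act1 replicate 1 and anti-Act1 replicate 2. The median log2 ratio of the 8 was −0.05, against 0.00 over all genes tested, and their values ran from −0.20 to 0.03. The groups did not overlap for 3 of the 8 (Aco1, Idh1 and Fh1, all lower in anti-Act1), while 57.1% of all genes tested had groups that did not overlap, 28.7% in that direction.

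**Figure D1:**
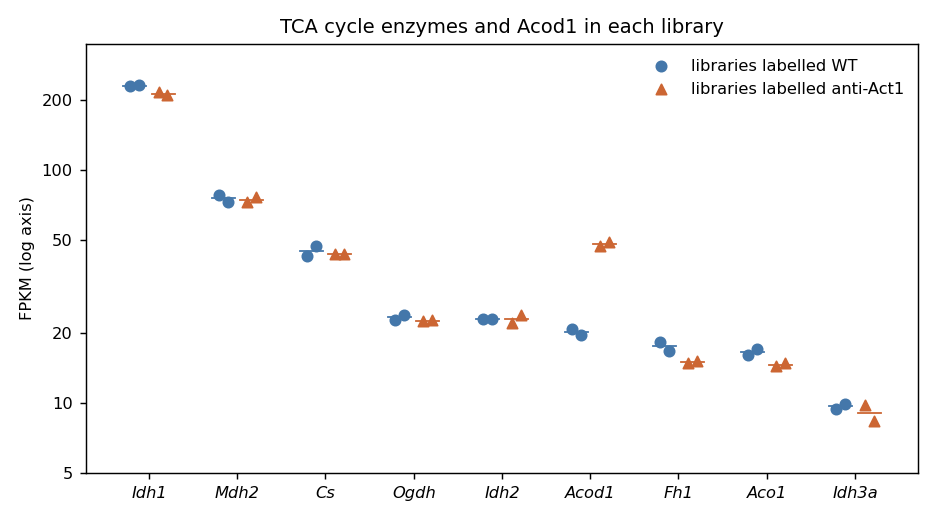
FPKM (counts scaled for gene length and library total, log axis) of the 9 members in each library, ordered by the WT mean; circles are WT libraries, triangles anti-Act1 libraries, and lines the group means. Acod1 moves from 20.8 and 19.6 to 47.1 and 49 FPKM and passes Cs, while the points of the other members stay close together.

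Per length, Idh1, Mdh2 and Idh3a held the same rank in every library, and the other members changed rank. Idh1 was the highest in every library, at 230 and 232 FPKM in WT and 217 and 211 FPKM in anti-Act1, followed by Mdh2 at 72.9 to 78.6 FPKM and then, in WT, by Cs at 42.9 and 47.2 FPKM. Idh3a was the lowest in every library, at 8.32 to 9.89 FPKM. Ogdh and Idh2, at WT means of 23.4 and 23 FPKM, exchanged places between libraries and did not differ beyond their spread. Fh1 and Aco1, at WT means of 17.5 and 16.6 FPKM, did so as well within WT. Acod1 was 6th in both WT libraries at 20.8 and 19.6 FPKM and 3rd in both anti-Act1 libraries at 47.1 and 49 FPKM, above Cs at 43.6 and 43.8 FPKM.

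Set against enzymes of the cycle, itaconate synthase was higher in both anti-Act1 libraries than in both WT libraries. The ratio of Acod1 to Cs in FPKM was 0.485 and 0.416 in WT and 1.08 and 1.12 in anti-Act1. Against Idh3a, the ratio was 2.2 and 1.98 in WT and 4.83 and 5.89 in anti-Act1. Both ratios separated the groups. Since Cs and Idh3a overlapped between the groups, this restates the rise of Acod1 and is not a further result. An exact permutation test of a single value over 2 against 2 libraries cannot give a two-sided p below 0.333, so none was run on the ratios.

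**Figure D2:**
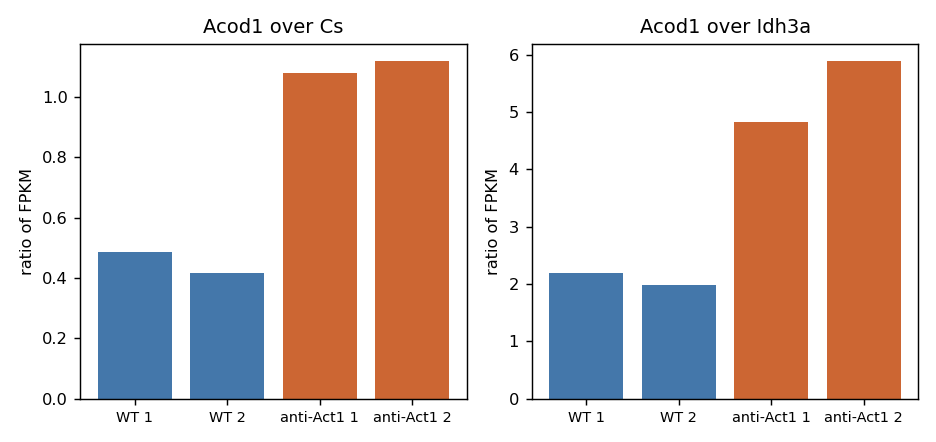
Ratio of the FPKM of Acod1 to that of Cs (left) and of Idh3a (right), 1 bar per library, on axes that start at 0. Both anti-Act1 bars stand above both WT bars, at 1.08 and 1.12 against 0.485 and 0.416 for Cs and at 4.83 and 5.89 against 2.2 and 1.98 for Idh3a.

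At the entry to the cycle, Cs, citrate synthase, was at 120 and 132 CPM in WT and 124 and 126 CPM in anti-Act1. The anti-Act1 libraries lay between the WT libraries. Its log2 ratio was −0.02 with a 95% interval from −0.13 to 0.09 (adjusted p = 0.86 by edgeR). A small part of its transcript words, 2.01% of the 50-base words, also occurs in Csl, a related gene, so a few of its reads could be shared.

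Aco1 encodes the cytosolic aconitase, which without its iron-sulphur cluster serves as the iron regulatory protein IRP1. It was at 69.2 and 72.6 CPM in WT and 62.3 and 65 CPM in anti-Act1, so both anti-Act1 libraries were lower. Its log2 ratio was −0.16 (SE 0.06, adjusted p = 0.049 by edgeR). The call was at the threshold: 10 of 14 alternatives lost it, DESeq2 among them (adjusted p = 0.091). It was lost on leaving out WT replicate 2 (−0.12), anti-Act1 replicate 1 (−0.12) or anti-Act1 replicate 2 (−0.18).

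The isocitrate dehydrogenases differ in place and cofactor: Idh1 encodes the cytosolic and Idh2 the mitochondrial NADP-dependent enzyme, and Idh3a the catalytic subunit of the NAD-dependent enzyme of the cycle. Idh1 was at 520 and 522 CPM in WT and at 495 and 486 CPM in anti-Act1. Both anti-Act1 libraries were lower, but its log2 ratio of −0.09 (95% interval −0.19 to 0.01) did not pass the test (adjusted p = 0.226 by edgeR). Idh2 was at 39.5 and 39.2 CPM in WT and 38.2 and 42.2 CPM in anti-Act1, and Idh3a at 22.5 and 23.5 CPM in WT and 23.5 and 20.3 CPM in anti-Act1. Both overlapped between the groups, with 95% intervals of −0.10 to 0.16 for Idh2 and −0.23 to 0.09 for Idh3a on the log2 scale. Of the FPKM of these 3 genes, Idh1 held 87.7% and 87.6% in WT and 87.2% and 86.7% in anti-Act1. This share leaves out Idh3b and Idh3g, which were higher than Idh3a. In WT they were at 63.5 and 59.9 FPKM (Idh3b) and 47.8 and 46.3 FPKM (Idh3g).

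Ogdh, the first subunit of the 2-oxoglutarate dehydrogenase complex, was at 121 and 126 CPM in WT and 120 and 123 CPM in anti-Act1. Its groups overlapped, and its log2 ratio was −0.02 with a 95% interval from −0.13 to 0.08 (adjusted p = 0.822 by edgeR). Fh1, fumarase, which hydrates fumarate to malate, was at 29.7 and 27 CPM in WT and 24.4 and 25 CPM in anti-Act1. Both anti-Act1 libraries were lower, with a log2 ratio of −0.20 (SE 0.07, adjusted p = 0.0465 by edgeR). This call too was at the threshold: 6 of 14 alternatives lost it, among them DESeq2 (adjusted p = 0.145) and the fits that left out WT replicate 1 (−0.13), anti-Act1 replicate 1 (−0.18) or anti-Act1 replicate 2 (−0.21). Mdh2, the mitochondrial malate dehydrogenase that closes the turn, was at 100 and 92.5 CPM in WT and 94.2 and 99.7 CPM in anti-Act1. It overlapped between the groups, with a log2 ratio of 0.01 and a 95% interval from −0.10 to 0.12.

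A further 12 genes of the cycle were read from the same fit. Of these, 1 was called higher, 0 lower and 11 did not pass, with a median log2 ratio of 0.02. Over all genes tested, 20.7% were called, 10.9% higher and 9.76% lower. The one called was Sdhd, a membrane anchor of succinate dehydrogenase, at 158 and 150 CPM in WT and 170 and 175 CPM in anti-Act1 (log2 ratio 0.16, SE 0.05, adjusted p = 0.0182 by edgeR). Its call was lost in 8 of 14 alternatives, scaling by library totals alone among them (0.14), and on leaving out WT replicate 2 (0.13), anti-Act1 replicate 1 (0.18) or anti-Act1 replicate 2 (0.15). The catalytic subunit Sdha, which itaconate inhibits as part of the enzyme, had a log2 ratio of 0.04, and Sdhb and Sdhc had 0.05 and 0.06. None of these passed the test. Dlst, the second subunit of the 2-oxoglutarate dehydrogenase complex, had 0.13 (adjusted p = 0.0831 by edgeR), and the succinyl-CoA synthetase genes Suclg1, Suclg2 and Sucla2 had −0.04, −0.05 and −0.03. Idh3b and Idh3g, the other subunits of the NAD-dependent isocitrate dehydrogenase, had −0.01 and −0.07, Dld −0.02 and the cytosolic malate dehydrogenase Mdh1 0.07.

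**Figure D3:**
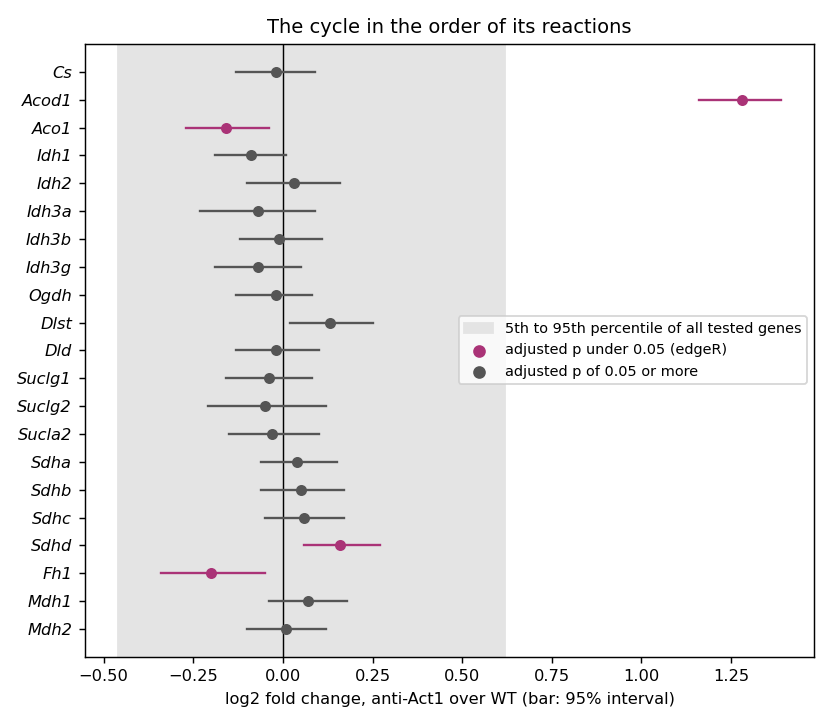
Log2 fold change of anti-Act1 over WT (points) with its 95% interval (bars) for Acod1, the other 8 members and 12 further genes of the cycle, in the order of the reactions; the grey band spans the 5th to 95th percentile of all tested genes. Acod1 at 1.28 lies outside the band, and the other 20 genes lie between −0.20 and 0.16.

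Genes that handle itaconate once it is made were read as a list of 10, which shares Sucla2 and Suclg2 with the cycle. Of these, 9 were tested, 1 was called higher and 0 lower, with a median log2 ratio of −0.05, where 20.7% of all genes were called. The one called was Clybl, the mitochondrial citramalyl-CoA lyase, which takes part in breaking itaconate down. It was at 16 and 16.5 CPM in WT and 20.5 and 20.9 CPM in anti-Act1. Both anti-Act1 libraries were higher, with a log2 ratio of 0.35 (SE 0.08, adjusted p = 0.00103 by edgeR), and the call held in all 14 alternatives. Auh, which hydrates itaconyl-CoA, and Sugct, a CoA transferase, both had 0.04 and did not pass. Oxgr1, a receptor that responds to 2-oxoglutarate and itaconate, had 0 counts in every library, which allows at most 3 counts in each (counting error only).

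At the exits and shuttles of the cycle the genes went both ways. Of 11 genes of citrate export, malic enzymes and carriers, 9 were tested, of which 2 were called higher and 1 lower. The shares over all genes tested were 10.9% higher and 9.76% lower. Me2, the mitochondrial malic enzyme that turns malate into pyruvate, was at 53.9 and 55.9 CPM in WT and 84.2 and 80.3 CPM in anti-Act1. Its groups were far apart, with a log2 ratio of 0.58 (SE 0.06, adjusted p = 3.03e-11 by edgeR). Slc25a1, the citrate exporter, was at 56.8 and 56 CPM in WT and 62.3 and 69.1 CPM in anti-Act1 (log2 ratio 0.22, adjusted p = 0.0055 by edgeR). Its call was lost with limma on unfiltered FPKM and without anti-Act1 replicate 2 (0.15). Slc25a13, an aspartate-glutamate carrier, was at 19.8 and 20.9 CPM in WT and 15.6 and 15.7 CPM in anti-Act1, and its log2 ratio was −0.38 (adjusted p = 0.000436 by edgeR). Me2 and Slc25a13 kept their calls in all 14 alternatives. Acly, which splits exported citrate, had −0.01 and did not pass, and Me3 and Slc13a5 had 0 counts in every library.

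Of the 14 genes of glutamine and aspartate entry, all tested, 4 were called higher and 1 lower, with a median log2 ratio of −0.01. Among all genes tested, 10.9% were called higher and 9.76% lower. Ass1, argininosuccinate synthase, which joins aspartate to citrulline in a path that returns fumarate, was at 4.22 and 3.49 CPM in WT and 14.8 and 13.1 CPM in anti-Act1. This was the widest change among the listed genes called, with a log2 ratio of 1.86 (SE 0.12, adjusted p = 7.51e-17 by edgeR). Gpt2, the mitochondrial alanine transaminase, was at 25.8 and 25.6 CPM in WT and 33.7 and 36.3 CPM in anti-Act1 (log2 ratio 0.45, adjusted p = 1.79e-06 by edgeR). Both calls held in all 14 alternatives. Adss and Adssl1, the adenylosuccinate synthases, had 0.19 and 0.17 (adjusted p = 0.00556 and 0.018 by edgeR). The call of Adss was lost in 2 of 14 alternatives, leaving out anti-Act1 replicate 1 (0.15) among them. That of Adssl1 was lost in 6 of 14, scaling by library totals alone and the limma fits among them. It also needed WT replicate 2 (0.11 with it left out) and anti-Act1 replicate 2 (0.13). The one called lower was Glud1, glutamate dehydrogenase, named after its value was seen, at 238 and 241 CPM in WT and 212 and 222 CPM in anti-Act1. Its log2 ratio was −0.15 (adjusted p = 0.034 by edgeR), and the call was lost in 5 of 14 alternatives, the replicate block among them. Leaving out WT replicate 2 (−0.14), anti-Act1 replicate 1 (−0.11) or anti-Act1 replicate 2 (−0.18) ended it too.

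Pyruvate entry held 14 genes, of which 13 were tested, 1 was called higher and 0 lower (median 0.05). For this list and those after it, the share called over all genes tested was 20.7%. The one called was Pdk3, a kinase that inactivates pyruvate dehydrogenase, at 14.1 and 14.6 CPM in WT and 17.6 and 17.2 CPM in anti-Act1 (log2 ratio 0.28, adjusted p = 0.0151 by edgeR). The call was lost in 5 of 14 alternatives, DESeq2 among them (adjusted p = 0.0668). It was also lost on leaving out WT replicate 1 (0.25), anti-Act1 replicate 1 (0.26) or anti-Act1 replicate 2 (0.30). Of 2 genes that remove 2-hydroxyglutarate, 0 passed the test: D2hgdh had −0.14, and Adhfe1, at 0.727 and 0.646 CPM in WT and 1.34 and 1.17 CPM in anti-Act1, had 0.88 (adjusted p = 0.052 by edgeR). Of 9 genes of succinate dehydrogenase assembly, iron-sulphur clusters and cycle control, 2 were called higher and 0 lower. Iscu, the scaffold on which iron-sulphur clusters are built, had 0.20 (adjusted p = 0.00534 by edgeR). Its call was lost in 3 of 14 alternatives, the correction for gene length and leaving out anti-Act1 replicate 1 (0.17) among them. Sdhaf1, an assembly factor of succinate dehydrogenase, had 0.25 (adjusted p = 0.0496 by edgeR). It lost its call in 8 of 14 alternatives, DESeq2 among them. The call was also lost with WT replicate 2 (0.20), anti-Act1 replicate 1 (0.24) or anti-Act1 replicate 2 (0.26) left out.

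**Figure D4:**
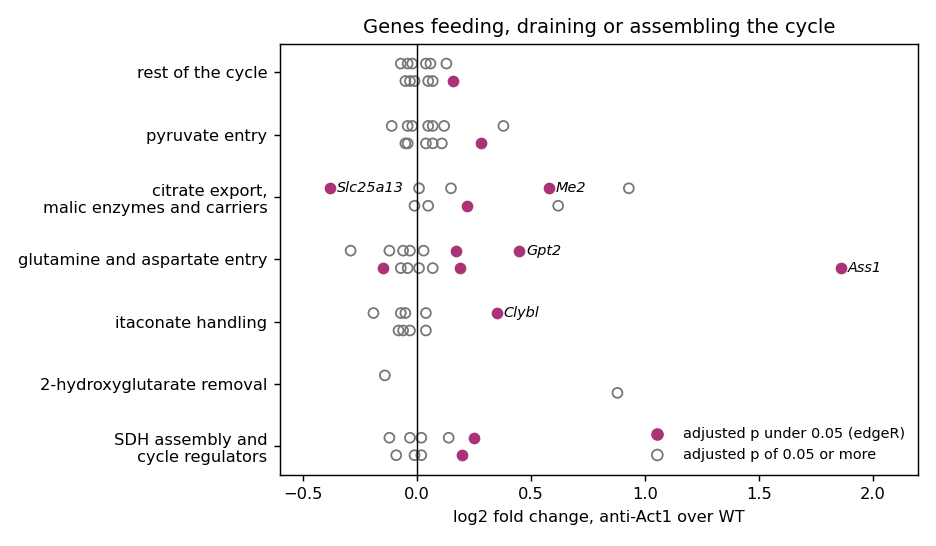
Log2 fold change of anti-Act1 over WT for the tested genes of 7 lists around the cycle, 1 point per gene, filled where the edgeR adjusted p was under 0.05. Ass1 (1.86), Me2 (0.58), Gpt2 (0.45), Clybl (0.35) and Slc25a13 (−0.38) are labelled, and the other called genes lie within 0.30 of 0.

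Over the 7 lists, 70 genes were named, 66 tested, 11 called higher and 2 lower, so that 13 of 66 were called where 20.7% of all genes were. The genes whose pattern over the 4 libraries lay nearest to that of Acod1, among 8405 genes with a mean of at least 10 CPM, were Il1a, which encodes an inflammatory cytokine, Nos2, the inducible nitric oxide synthase, Rgcc, Met, a growth factor receptor, and Vldlr, a lipoprotein receptor. Their Euclidean distances in log2 CPM, each gene centred on its own mean, were 0.0953, 0.102, 0.115, 0.129 and 0.146. With 4 libraries in 2 groups, this likeness mostly says that the log2 ratios were close, at 1.35, 1.34, 1.33, 1.33 and 1.17 against 1.28 for Acod1.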

How the data were processed

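RNA was sequenced as read pairs from macrophages after coculture. The authors filtered the reads for adapters, undetermined bases and quality, aligned those kept with TopHat on a Bowtie index, and deposited raw counts per gene. The submitters' processing notes also name Bowtie 0.12.2, HTSeq 0.6.1 and the builds mm8 and mm10, without their roles; the annotation was not given in the sources used here. In the deposited FPKM each count is scaled by the length of its gene and by its library's sum, as a check of the tables showed. Some genes are not reported here. Spreadsheet dates replaced 27 gene names, none of them reported here.

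Counts were tested in edgeR 4.0.16 (R 4.3.3) with TMM scaling, its default expression filter, condition as the sole term and a quasi-likelihood F test (two-sided), adjusted by Benjamini-Hochberg over 12494 genes, with a threshold of 0.05. Intervals and SE come from this fit. FPKM served for levels between genes. The p-values set the difference against the spread between 2 libraries per group. That spread was estimated for each gene and drawn toward a trend over all genes tested. Very small p-values thus rest partly on other genes. Libraries held 55435063 to 75062945 counts. The study names DESeq2, which was run as 1 of 14 alternatives (DESeq2 1.42.0; limma 3.58.1 on log2(FPKM + 1) and log2(FPKM + 0.1), each for FPKM of at least 1 in 2 libraries, and the former without a filter; edgeR with DESeq2's size factors, with library totals alone, with all counted genes, with a minimum of 10 counts per library, with the replicate number as a block, and after a loess correction for gene length of span 0.3; and the omission of each library in turn). The edgeR, DESeq2 and limma tests were also run on simulated counts drawn with the same spread for every gene. That run cannot show how the p-values behave with the real spread of each gene. The members, lists and motifs were chosen with earlier results of these data known. Named genes were the 9 members, the listed other genes of the cycle, Traf3ip2, the 5 genes nearest to Acod1 in pattern and, of each other list, the 4 genes with the smallest adjusted p under 0.05 and a mean of at least 1 CPM, and genes at 0. Glud1, Acly, Auh, Sugct, D2hgdh and Adhfe1 fall outside this rule and were named after their values were seen, and the Y-linked genes were named as a check of the samples. The other marker lists (B and T lymphocytes, erythroid, mast and dendritic cells, fibroblasts) summed to at most 3.99 CPM in any library.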

Additional observations from a re-analysis of the deposited data

How the results depend on the processing

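Acod1, Clybl, Me2, Slc25a13, Gpt2 and Ass1 kept their direction and their call under all 14 alternatives, with adjusted p of at most 0.0405. Of the 9 members, 3 were called, and the count was 1 with DESeq2, with the replicate block and with limma on unfiltered log2(FPKM + 1), and 1 to 2 when a library was left out; Aco1 and Fh1 were the calls lost, and the cause was not tested. Of the other genes of the cycle and its branches 13 were called, 6 in that limma fit and 7 to 14 when a library was left out. Over all genes 2586 were called, 1091 with that limma fit and 1671 to 2543 when a library was left out, where fewer samples enter the fit. With the replicate number as a block, which the labels tie to no shared animal or day, 2406 genes and 11 of the other cycle and branch genes were called; deviations of same-numbered libraries from their group means had a correlation of −0.0328. With 2 libraries per group, members with an adjusted p near 0.05 were called or not depending on the setting. Genes at 0 counts could hold up to 3 counts per library. No DESeq2 adjusted p that was missing entered a count.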
